A study of Mus musculus with 11 samples.

Results

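The response of podocytes that lack MYD88 to nephrotoxic serum was followed in 5 of the 11 RNA-seq libraries of the series. Of these, 3 libraries (BKV_884, BKV_889 and BKV_890) came from podocytes of MyD88pko mice on day 5 of nephrotoxic nephritis (NTN), and 2 (BKV_729 and BKV_733) from podocytes of untreated MyD88pko mice. MyD88pko mice carry floxed Myd88 on both alleles and the PodTOM allele, so that Cre and the fluorophore mTomato are made in podocytes alone and other kidney cells keep Myd88. NTN was induced in male mice of 8 to 16 weeks with nephrotoxic sheep serum, given into the tail vein at 9 µl per g on 2 consecutive days, while the study's animals as a whole were 8 to 52 weeks old. All mice were on a C57BL/6N background (C57BL/6 in the labels). For comparison, 3 nephritic and 3 untreated libraries came from PodTOM mice with wild-type Myd88. Live mTomato-positive cells were sorted from bead-isolated glomeruli, and the RNA was amplified before library preparation. The sources used here do not say outright that each library is a separate mouse, although the number of nephritic libraries matches the number of replicates given for that group. The p-values cover differences between these libraries, which may in part be technical.

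The genes described are the 9305 protein-coding genes that averaged 10 CPM or more in the nephritic or the untreated MyD88pko group. Olfactory receptor (Olfr), vomeronasal receptor (Vmn) and Gm gene models were left out. CPM are estimated counts per gene, scaled to the library's total over genes that passed a filter on low counts and to its TMM factor. The described genes belong to 21200 genes that passed this filter, and each of the 9305 passed it. Adjusted p-values are those of edgeR's quasi-likelihood test with Benjamini-Hochberg adjustment over all 21200 genes, a gene is called changed at an adjusted p under 0.05, and log2 fold changes are NTN over untreated with their standard error (SE).

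Podocytes are the epithelial cells that wrap glomerular capillaries with interdigitating foot processes, which are joined by the slit diaphragm and held in shape by an actin cytoskeleton. MYD88 is the adaptor through which most Toll-like receptors and the receptors of the IL-1 family activate NF-κB. TLR3 and TLR4 can signal through TRIF, an adaptor that leads to interferon regulatory factors. Nephrotoxic serum holds antibodies that bind in the glomerulus and start an immune-mediated glomerulonephritis, so the comparison asks which part of the podocyte response is present when MYD88 is missing from the podocyte itself.

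Myd88 (ENSMUSG00000032508, GRCm38 chr9:119335934-119341411, minus strand) was near the limit of detection in MyD88pko podocytes of both conditions. Its level was 0.485, 0.474 and 0.464 CPM in nephritic MyD88pko libraries and 0.976 and 0.2 CPM in untreated MyD88pko libraries, against 10.5, 7.97 and 14.1 CPM in nephritic PodTOM libraries and 6.49, 7.95 and 7.23 CPM in untreated PodTOM libraries. All 5 MyD88pko libraries lay below all 6 PodTOM libraries, which fits their labels.

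Library totals were 22229179, 20650133 and 32764201 estimated counts in the nephritic MyD88pko libraries and 15893635 and 15784354 in the untreated ones, and counts above 0 were found for 24305 to 28511 genes in nephritic libraries, against 19202 and 19670 in untreated libraries. The libraries of the groups differed in more than podocyte genes. Summed over 549 Vmn genes, which podocytes are not known to use, the level was 336, 411 and 141 CPM in BKV_884, BKV_889 and BKV_890, against 62.4 and 95.3 CPM in BKV_729 and BKV_733. Over 1407 Olfr genes it was 12680, 15160 and 6550 CPM in BKV_884, BKV_889 and BKV_890, against 7113 and 7703 CPM in BKV_729 and BKV_733, so that BKV_890 stood apart from the other nephritic libraries. For this reason counts are also given from a fit without the 3 nephritic libraries of the series that had most Vmn signal (BKV_884, BKV_889 and AOL_1225 of the PodTOM group), called the fit without the 3 libraries. It leaves BKV_890 as the only nephritic MyD88pko library, which is then assumed to vary like the other groups. The fold change also moved with transcript length. Among 3 equally large groups of the described genes by effective length, the median log2 fold change was 0.24 in the shortest (median 1551 bases), -0.15 in the middle and -0.31 in the longest (median 5037 bases), and it followed the same order in PodTOM podocytes (0.14, -0.17 and -0.31). Where this bears on a group of genes, the count from a fit with the length trend of each library removed is given too; that fit was chosen after seeing the data. A fit with the Vmn signal as a covariate (the Vmn covariate) and the other alternatives, among them limma on log2(TPM + 1), are named where they end a call or move a count by more than 1.5 times. Calls that an alternative gained are not listed in each paragraph, and examples are given in the section on processing. Whether the Vmn signal or the length trend has a part in any one result was not tested beyond these fits.

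The transcriptome of MyD88pko podocytes changed broadly in NTN. Of the 9305 described genes, 1198 (12.87%) rose and 1468 (15.78%) fell, where 11.3% of all 21200 genes tested rose and 8.22% fell. The falls were shallower than the rises: 787 genes rose more than 2-fold and 125 more than 4-fold, whereas 384 fell more than 2-fold and 21 more than 4-fold. The median log2 fold change was 1.19 among the genes that rose, -0.79 among those that fell and -0.11 over all described genes. In a principal component analysis of the 9305 genes in the 5 libraries, 72.67% of the variance lay on a first axis, which placed the nephritic libraries at 31.6, 30.3 and 17.6 and the untreated ones at -36.9 and -42.6, without overlap. The correlation of log2(CPM + 1) across genes was 0.959 to 0.99 among nephritic libraries and 0.974 between the untreated ones, against 0.884 to 0.918 between the conditions. Counts were sensitive to single libraries. Without BKV_729 651 described genes rose and 695 fell, without BKV_733 466 and 519, without BKV_884 the genes that fell numbered 612, and without BKV_889 they numbered 699. In the fit without the 3 libraries 591 rose and 150 fell. Over all genes tested, 57.83% of calls were rises, against 41.94% when log2(TPM + 1) was tested and 65.15% when the scale was set on protein-coding genes alone. The median log2 fold change of all genes moved with the scale, at 0.16, -0.05 and 0.27 in these fits.

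**Figure D1:**
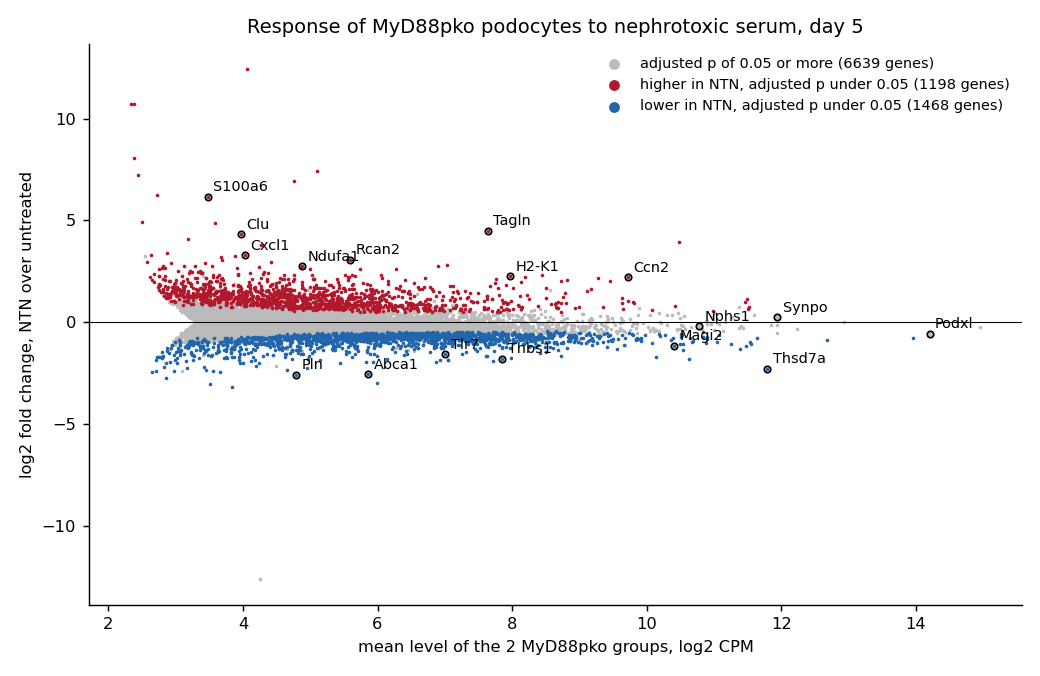
Response of MyD88pko podocytes to nephrotoxic serum at day 5. Each point is 1 of 9305 described genes, the x axis gives the log2 of its mean CPM over the nephritic and the untreated group and the y axis its log2 fold change, NTN over untreated. Red points are the 1198 genes that rose and blue points the 1468 that fell at an adjusted p under 0.05 (edgeR). Tagln stands out among genes that rose and Thsd7a among abundant genes that fell, while Nphs1 and Synpo lie close to 0.

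Of the described genes, Tagln had the lowest adjusted p. It encodes transgelin, an actin-binding protein of contractile cells (GRCm38 chr9:45929619-45936058), and had 332, 325 and 485 CPM in nephritic libraries, against 17.4 and 16.3 CPM in untreated libraries (log2 fold change 4.50 ± 0.25 SE, adjusted p = 4.21e-08). Rcan2, an inhibitor of calcineurin, had 77.7, 93.8 and 86.5 CPM in nephritic libraries, against 13.3 and 7.01 CPM in untreated libraries (log2 fold change 3.08 ± 0.27 SE, adjusted p = 5.02e-06). Arf3, a small GTPase of the Golgi, had 752, 731 and 710.1 CPM in nephritic libraries, against 167 and 178 CPM in untreated libraries (log2 fold change 2.08 ± 0.17 SE, adjusted p = 4.32e-06). Dbi, which binds acyl-CoA, and Cryab, a small heat shock protein, also rose, with log2 fold changes of 2.31 and 1.96. The proteasome subunit Psmb5 had 53.7, 46.9 and 62 CPM in nephritic libraries, against 12.2 and 9.68 CPM in untreated libraries (log2 fold change 2.31 ± 0.24 SE, adjusted p = 2.01e-05), and the mitochondrial protein gene Chchd2 a log2 fold change of 1.74. S100a6, a calcium-binding protein, was almost undetected in untreated libraries, with 28.4, 17.4 and 20 CPM in nephritic libraries, against 0.065 and 0.534 CPM in untreated libraries (log2 fold change 6.17 ± 0.78 SE, adjusted p = 0.000195). None of these genes had overlapping groups.

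Among the genes that fell, Thsd7a stood out for its abundance. It encodes a podocyte membrane protein that is a target antigen of human membranous nephropathy (GRCm38 chr6:12311610-12749410). Its level was 1120.3, 1108 and 1429 CPM in nephritic libraries, against 5562 and 6192 CPM in untreated libraries (log2 fold change -2.27 ± 0.18 SE, adjusted p = 4.32e-06). Abca1, the cholesterol exporter, had 19.5, 18.4 and 13.4 CPM in nephritic libraries, against 77.3 and 122 CPM in untreated libraries (log2 fold change -2.54 ± 0.22 SE, adjusted p = 4.59e-06). Pln, the phospholamban gene, whose product inhibits the calcium pump of the endoplasmic reticulum, had 6.71, 7.67 and 9.55 CPM in nephritic libraries, against 43.4 and 51.6 CPM in untreated libraries (log2 fold change -2.57 ± 0.23 SE, adjusted p = 5.02e-06). Thbs1, encoding the matricellular protein thrombospondin 1, had 102, 97.3 and 112 CPM in nephritic libraries, against 348 and 369.6 CPM in untreated libraries (log2 fold change -1.79 ± 0.21 SE, adjusted p = 4.63e-05). The calcium- and calmodulin-dependent kinase gene Camk2b, the neuronal adhesion gene Astn2, the bicarbonate transporter Slc4a10, the amino acid transporter Slc38a6 and the sorting nexin Snx31 fell with log2 fold changes of -1.99, -1.84, -2.24, -1.46 and -1.55. Pex11g, of peroxisome division, had -1.86, the scaffold gene Sash1 -1.39, Mkln1 -1.66, Ccdc107 -2.98 and the RNA-binding protein gene Rbm44 -3.16. In each of these genes all nephritic libraries lay below both untreated libraries, and each call held in every fit tried.

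Genes that define the podocyte did not move as a block. Podocyte markers were abundant in both conditions. Nphs1 (nephrin) had 1499, 1456 and 1987 CPM in nephritic libraries, against 1872 and 1879 CPM in untreated libraries. Synpo (synaptopodin) had 3884, 3612 and 5316 CPM in nephritic libraries, against 3469 and 3689.8 CPM in untreated libraries. The groups overlapped for both genes and neither was called (adjusted p = 0.502 and 0.354). Podxl (podocalyxin, the charged coat protein of foot processes) had 13905, 13150 and 18995 CPM in nephritic libraries, against 21740 and 23128 CPM in untreated libraries. Wt1, a transcription factor that podocytes need, had 918, 853 and 1182 CPM in nephritic libraries, against 1356 and 1313 CPM in untreated libraries. For both genes the groups did not overlap, but neither was called (adjusted p = 0.0553 and 0.0909). The absence of a call did not hold in every alternative fit, since both genes passed the threshold in some of them.

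Of the slit diaphragm and foot process genes, 2 rose and 9 fell of 30 tested (median log2 fold change -0.29). Of the described genes 12.87% rose and 15.78% fell. With the length trend removed 3 genes of the list rose and 8 fell, and the median was -0.05. Besides Thsd7a, genes of scaffolds below the slit diaphragm fell. Magi2, a scaffold that binds nephrin, had 743, 782 and 1020.4 CPM in nephritic libraries, against 1838 and 1884 CPM in untreated libraries (log2 fold change -1.13 ± 0.16 SE, adjusted p = 0.000259). Mpp5 (PALS1), of the Crumbs polarity complex, had 815, 736 and 935 CPM in nephritic libraries, against 2234 and 2038 CPM in untreated libraries (log2 fold change -1.37 ± 0.17 SE, adjusted p = 7.6e-05). Robo2, a guidance receptor that binds nephrin through an adaptor, had 391, 399 and 447 CPM in nephritic libraries, against 1009 and 903 CPM in untreated libraries (log2 fold change -1.21 ± 0.15 SE, adjusted p = 6.81e-05). Arhgdia, an inhibitor of small GTPases, and Npnt rose. Arhgdia had 309.9, 308 and 441 CPM in nephritic libraries, against 204 and 184 CPM in untreated libraries (log2 fold change 0.86 ± 0.19 SE, adjusted p = 0.00476). Npnt (nephronectin), a basement membrane ligand of an integrin, had 2186, 2140 and 2891 CPM in nephritic libraries, against 1690 and 1609 CPM in untreated libraries (log2 fold change 0.54 ± 0.18 SE, adjusted p = 0.041). The number that fell was 8 to 12 with single libraries left out and 5 without the 3 libraries or with the Vmn covariate, and the number that rose was 0 to 2 with single libraries left out (1 without BKV_890 or BKV_729 and 0 without BKV_733), 2 without the 3 libraries and 1 with the Vmn covariate or with limma. Among the genes of this paragraph, calls were lost for Npnt without BKV_890 or BKV_729, for Arhgdia and Npnt without BKV_733 and for Npnt with the Vmn covariate or with limma or with no low-count filter.

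Of podocyte transcription factors, 1 rose and 8 fell of 20 tested (median -0.47). Of all genes tested 8.22% fell, and of the described genes 15.78%. Dach1, a repressor expressed in mature podocytes, had 251, 246 and 302 CPM in nephritic libraries, against 619 and 645 CPM in untreated libraries (log2 fold change -1.25 ± 0.15 SE, adjusted p = 7.09e-05). The glucocorticoid receptor gene Nr3c1 had 58.8, 54.6 and 69.6 CPM in nephritic libraries, against 116 and 100.1 CPM in untreated libraries (log2 fold change -0.82 ± 0.16 SE, adjusted p = 0.00243). Tcf21, which acts early in podocyte development, moved the other way, with 311, 231 and 317 CPM in nephritic libraries, against 109 and 149 CPM in untreated libraries (log2 fold change 1.15 ± 0.18 SE, adjusted p = 0.000548), and was the only member that rose. The number that fell was 3 to 9 with single libraries left out (4 without BKV_884 or BKV_889, 5 without BKV_729 and 3 without BKV_733), 1 without the 3 libraries or with the Vmn covariate and 5 with the length trend removed. Calls of this list were lost for Nr3c1 without the 3 libraries or with the Vmn covariate.

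**Figure D2:**
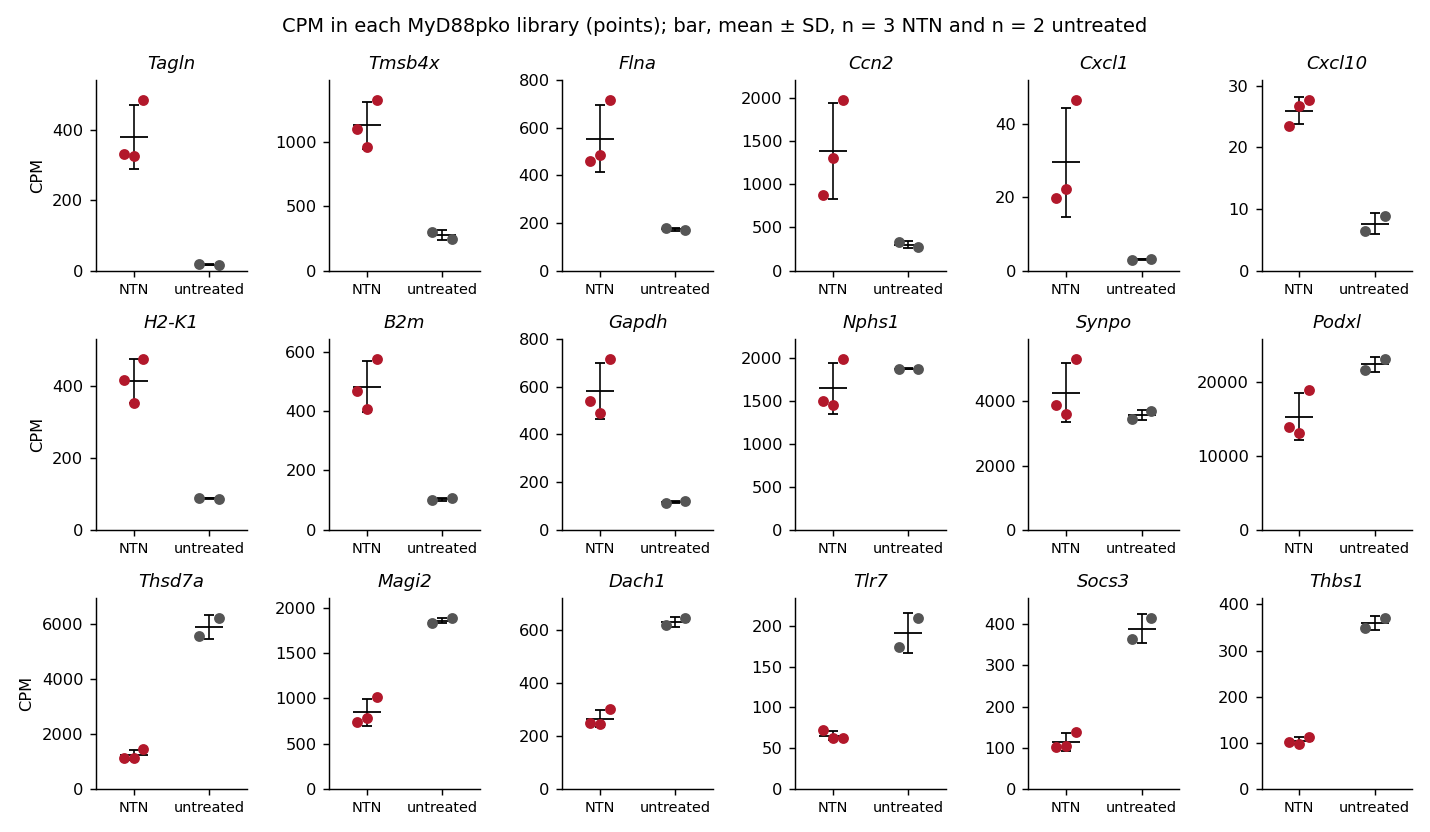
CPM of 18 genes in each of the 5 MyD88pko libraries. Points are libraries (3 nephritic on the left, 2 untreated on the right of each panel), the horizontal bar is the mean and the whiskers are the SD; each y axis starts at 0. Groups are apart for every gene shown except Nphs1 and Synpo; for Podxl they are apart but the change was not called.

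Of actin and contractility genes, 22 rose and 2 fell of 50 tested, where 11.3% of all genes tested rose (median log2 fold change 0.51, against 0.16 over all genes tested). Alongside Tagln, the actin monomer-binding Tmsb4x (thymosin β4) had 1101, 963 and 1326 CPM in nephritic libraries, against 304 and 249 CPM in untreated libraries (log2 fold change 2.03 ± 0.19 SE, adjusted p = 7.5e-06). The actin cross-linker Flna (filamin A) had 462, 486 and 717 CPM in nephritic libraries, against 177 and 169 CPM in untreated libraries (log2 fold change 1.68 ± 0.19 SE, adjusted p = 4.63e-05). Actn1, an α-actinin of many cell types, had 161, 185 and 279 CPM in nephritic libraries, against 86.4 and 93 CPM in untreated libraries (log2 fold change 1.21 ± 0.21 SE, adjusted p = 0.00115). The myosin light chains Myl12a, Myl6 and Myl12b rose with log2 fold changes of 2.19, 1.56 and 1.01; Myl12a had 928, 909 and 1203 CPM in nephritic libraries, against 239.9 and 205 CPM in untreated libraries. Tpm1 (tropomyosin) rose with 0.83 (adjusted p = 0.0125). Among these genes, calls were lost for Tpm1 without BKV_729 or BKV_733.

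Other members of the same machinery were not called or fell. Actn4, the α-actinin typical of podocytes, had 1156, 1236 and 1844 CPM in nephritic libraries, against 973 and 1237 CPM in untreated libraries (adjusted p = 0.255). The nonmuscle myosin heavy chain Myh9 had 842, 862 and 1236 CPM in nephritic libraries, against 1149.8 and 1249.5 CPM in untreated libraries (adjusted p = 0.281). Actg1 (γ-actin) had 1229, 1385 and 2291 CPM in nephritic libraries, against 1230.5 and 1168 CPM in untreated libraries (adjusted p = 0.198), and the groups overlapped in all 3 genes. Gsn, which encodes the actin-severing protein gelsolin, had 199.8, 179 and 241 CPM in nephritic libraries, against 334 and 348 CPM in untreated libraries (log2 fold change -0.72 ± 0.16 SE, adjusted p = 0.00479). The nonmuscle myosin heavy chain gene Myh10 had 29.8, 30.9 and 36.4 CPM in nephritic libraries, against 51.4 and 52.9 CPM in untreated libraries (log2 fold change -0.69 ± 0.18 SE, adjusted p = 0.0146). Calls were lost for Myh10 without BKV_884 or BKV_889 or BKV_729, for Gsn and Myh10 without BKV_733, for Gsn and Myh10 without the 3 libraries or with the Vmn covariate and for Myh10 with the length trend removed. The number of genes that rose was 13 to 23 with single libraries left out (13 without BKV_733) and 23 without the 3 libraries or with the length trend removed, and the number that fell 0 to 6 with single libraries left out (1 without BKV_884 or BKV_889 or BKV_729, 6 without BKV_890 and 0 without BKV_733), 0 without the 3 libraries, 1 with the Vmn covariate and 4 with limma.

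Serum response factor, which drives many contractile genes, binds a sequence called the CArG box. Promoters of RefSeq (GRCm38.p6, 250 bases before to 50 after the start) were at hand for 45 of the 50 tested genes of the list, and 4 of these (8.89%) held a CArG box on either strand, against 1.57% of all 27025 promoters. Of the 20 list genes that rose and had a promoter in the table, 2 held the box, and both are shown to let the box be seen in its setting, with the box in capitals. Cnn2 (calponin 2, an actin-binding protein) had 102, 109 and 144 CPM in nephritic libraries, against 34.5 and 37.9 CPM in untreated libraries (log2 fold change 1.71 ± 0.21 SE, adjusted p = 6.98e-05). Myl9, a myosin regulatory light chain, had 21.4, 22.1 and 15.3 CPM in nephritic libraries, against 2.8 and 4.94 CPM in untreated libraries (log2 fold change 2.34 ± 0.38 SE, adjusted p = 0.00063). The match lies 56 bases before the start of Cnn2 and 161 before that of Myl9. A match describes these letters only. The promoters run from chr10:79988350-79988649 (plus strand, Cnn2) and chr2:156775214-156775513 (plus strand, Myl9).
Cnn2 promoter: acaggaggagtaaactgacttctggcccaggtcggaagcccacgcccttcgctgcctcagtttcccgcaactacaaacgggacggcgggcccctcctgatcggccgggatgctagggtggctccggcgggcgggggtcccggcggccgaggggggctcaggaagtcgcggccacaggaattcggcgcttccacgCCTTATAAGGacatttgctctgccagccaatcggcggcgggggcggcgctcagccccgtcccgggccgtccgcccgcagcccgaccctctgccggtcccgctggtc
Myl9 promoter: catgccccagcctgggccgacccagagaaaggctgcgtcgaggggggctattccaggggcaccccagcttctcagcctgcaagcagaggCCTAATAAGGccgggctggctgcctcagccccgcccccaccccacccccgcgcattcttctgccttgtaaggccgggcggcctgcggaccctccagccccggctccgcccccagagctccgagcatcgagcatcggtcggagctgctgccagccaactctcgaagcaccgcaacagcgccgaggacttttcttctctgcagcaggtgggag

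Adhesion and junction genes changed in both directions. Of focal adhesion and integrin genes, 7 rose and 6 fell of 30 tested, where 12.87% of the described genes rose and 15.78% fell. Ilk, the integrin-linked kinase, had 165, 168 and 221 CPM in nephritic libraries, against 99.6 and 105 CPM in untreated libraries (log2 fold change 0.85 ± 0.17 SE, adjusted p = 0.00318). The tetraspanin gene Cd151 rose (log2 fold change 0.76), and the integrin gene Itgb8 and the ILK partner Lims1 fell (log2 fold changes -0.84 and -0.78). Adhesion genes that rose numbered 1 to 7 with single libraries left out (1 without BKV_729 and 4 without BKV_733), 4 without the 3 libraries or with the Vmn covariate, 12 with the length trend removed and 11 with the scale of protein-coding genes, and those that fell 1 to 7 with single libraries left out (2 without BKV_884 or BKV_889 and 1 without BKV_729 or BKV_733), 0 without the 3 libraries or with the Vmn covariate and 4 with the length trend removed. Of tight junction and polarity genes, 3 rose and 5 fell of 28 tested, near the 12.87% and 15.78% of the described genes. Tjp1 (ZO-1, which links the slit diaphragm to actin) had 1487, 1418 and 1886 CPM in nephritic libraries, against 3425 and 3173 CPM in untreated libraries (log2 fold change -1.05 ± 0.17 SE, adjusted p = 0.000782). Cldn1, a claudin typical of parietal epithelial cells, rose, with 52.1, 59.5 and 90.1 CPM in nephritic libraries, against 18.6 and 19.2 CPM in untreated libraries (log2 fold change 1.83 ± 0.22 SE, adjusted p = 7.09e-05), and so did the polarity gene Pard6b (1.21). Junction genes that fell numbered 5 to 7 with single libraries left out, 3 without the 3 libraries and 2 with the Vmn covariate. Cldn1 was the 1 gene that rose of the list of parietal epithelial and crescent genes, of which 3 fell of 17 tested (median -0.10), with Cd9 and Dkk3 at log2 fold changes of -0.86 and -1.11. Summed over the 18 genes of that list the level was 296, 308 and 323 CPM in nephritic libraries, against 323 and 342 CPM in untreated libraries. Parietal genes that fell numbered 0 to 3 with single libraries left out (0 without BKV_884 or BKV_889 or BKV_733 and 1 without BKV_729), 0 without the 3 libraries and 1 with the Vmn covariate. Scrib, of the Scribble polarity complex, had 9.5, 8.96 and 12.5 CPM in nephritic libraries, against 11.6 and 8.48 CPM in untreated libraries (adjusted p = 0.94). Calls were lost in this paragraph for Cd9 and Dkk3 without BKV_884 or BKV_889, for Cd151, Lims1, Cd9 and Dkk3 without BKV_729, for Lims1, Cd9 and Dkk3 without BKV_733, for Itgb8, Lims1, Cd9 and Dkk3 without the 3 libraries, for Itgb8, Lims1, Tjp1, Cd9 and Dkk3 with the Vmn covariate and for Cd9 with no low-count filter or with the 5 libraries alone or with the filter at 10 CPM or with the scale of protein-coding genes.

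Of fibrillar and matricellular matrix genes, 11 rose and 2 fell of 35 tested (median 0.93), where 11.3% of all genes tested rose. In this list 15 of the 35 averaged 10 CPM or more in either MyD88pko group. Ccn2 (connective tissue growth factor) had 872, 1303 and 1978 CPM in nephritic libraries, against 327 and 270.4 CPM in untreated libraries (log2 fold change 2.21 ± 0.28 SE, adjusted p = 9.28e-05). Loxl2, which cross-links collagen, had 569.8, 510 and 743 CPM in nephritic libraries, against 273 and 239.5 CPM in untreated libraries (log2 fold change 1.24 ± 0.18 SE, adjusted p = 0.000274). Tgfbi, a matrix protein, had 249, 282 and 118 CPM in nephritic libraries, against 53.9 and 71.4 CPM in untreated libraries (log2 fold change 1.79 ± 0.30 SE, adjusted p = 0.00135). Thbs1 and Plat (tissue plasminogen activator) were the 2 genes that fell. Plat had 1056, 1004 and 1357 CPM in nephritic libraries, against 2137 and 2180.3 CPM in untreated libraries (log2 fold change -0.92 ± 0.19 SE, adjusted p = 0.00328). The number that rose was 5 to 12 with single libraries left out (6 without BKV_729 and 5 without BKV_733), 7 without the 3 libraries and 5 with the Vmn covariate, and the number that fell 2 to 3 with single libraries left out and 1 without the 3 libraries or with the Vmn covariate. Matrix calls were lost for Plat without the 3 libraries, for Tgfbi and Plat with the Vmn covariate and for Tgfbi with the length trend removed.

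Of TGF-β and BMP signalling genes, 2 rose and 4 fell of 30 tested. Among them, 2 TGF-β ligands rose and 2 BMP receptors fell. Tgfb3 had 6.31, 7.28 and 8.22 CPM in nephritic libraries, against 1.24 and 0.534 CPM in untreated libraries (log2 fold change 3.03 ± 0.49 SE, adjusted p = 0.000695). Tgfb2 had 22.3, 23.7 and 35.5 CPM in nephritic libraries, against 6.63 and 11.6 CPM in untreated libraries (log2 fold change 1.58 ± 0.28 SE, adjusted p = 0.0012). The receptor genes Bmpr2 and Bmpr1a fell with log2 fold changes of -0.79 and -0.67. Of glomerular basement membrane genes, 2 rose and 3 fell of 20 tested. Col4a1, the collagen chain of the embryonic and mesangial matrix, had 14.6, 11.6 and 9.22 CPM in nephritic libraries, against 4.88 and 2.47 CPM in untreated libraries (log2 fold change 1.68 ± 0.45 SE, adjusted p = 0.0172). The laminin gene Lama1 fell, with 8.53, 13.9 and 19.9 CPM in nephritic libraries, against 43.4 and 53.6 CPM in untreated libraries (log2 fold change -1.78 ± 0.42 SE, adjusted p = 0.0112). These calls were lost for Bmpr1a and Col4a1 without BKV_884, for Bmpr1a without BKV_889 or BKV_729, for Bmpr2, Bmpr1a, Col4a1 and Lama1 without BKV_733, for Bmpr2, Bmpr1a, Col4a1 and Lama1 without the 3 libraries or with the Vmn covariate, for Bmpr2 and Bmpr1a with the length trend removed and for Tgfb2 and Col4a1 with limma. TGF-β and BMP genes that fell numbered 0 to 6 with single libraries left out (1 without BKV_884 or BKV_889 or BKV_729 and 0 without BKV_733), 1 without the 3 libraries or with the Vmn covariate or with the length trend removed and 7 with limma. Basement membrane genes that rose numbered 0 to 2 with single libraries left out (0 without BKV_884 or BKV_733 and 1 without BKV_889), 0 without the 3 libraries or with the Vmn covariate or with limma and 4 with the length trend removed, and those that fell 0 to 5 with single libraries left out (1 without BKV_884 or BKV_729, 5 without BKV_890 and 0 without BKV_733), 1 without the 3 libraries and 0 with the Vmn covariate. In both lists the share that rose lay below the 11.3% of all genes tested.

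Genes of receptors that signal through MYD88 changed in cells that lack the adaptor. Of Toll-like and IL-1 receptor genes, 5 rose and 2 fell of 18 tested, where 11.3% of all genes tested rose. Among the 18, 8 averaged 10 CPM or more in either MyD88pko group. Tlr7, a receptor for single-stranded RNA, fell, with 71.8, 62.1 and 62.1 CPM in nephritic libraries, against 174 and 209 CPM in untreated libraries (log2 fold change -1.55 ± 0.16 SE, adjusted p = 2.1e-05). Il1rl1, the IL-33 receptor, had 5.78, 6.85 and 7.59 CPM in nephritic libraries, against 20.6 and 27.1 CPM in untreated libraries (log2 fold change -1.82 ± 0.24 SE, adjusted p = 0.000117). Both calls held in every alternative that was run. Tlr1, whose product pairs with TLR2, rose, with 20.7, 25.8 and 7.63 CPM in nephritic libraries, against 4.16 and 4.81 CPM in untreated libraries (log2 fold change 2.00 ± 0.46 SE, adjusted p = 0.00717), and BKV_890 was the lowest of them. Tlr5 had 1.29, 1.38 and 1.82 CPM in nephritic libraries, against 0.065 and 0 CPM in untreated libraries (log2 fold change 5.27 ± 1.30 SE, adjusted p = 0.0106). Tlr2 was at 0 in both untreated libraries and at 0.849, 0.732 and 0.332 CPM in nephritic ones, at least 6.45-fold higher with 3 counts over the untreated group as the floor. Tlr3, whose product uses TRIF, had 9.62, 11.9 and 11.5 CPM in nephritic libraries, against 10.7 and 6.81 CPM in untreated libraries (adjusted p = 0.477). Tlr4, whose product binds lipopolysaccharide and can also use TRIF, had 5.3, 6.2 and 2.69 CPM in nephritic libraries, against 3.38 and 2.14 CPM in untreated libraries (adjusted p = 0.24). The groups overlapped for both. Receptor genes that rose numbered 0 to 5 with single libraries left out (2 without BKV_884 or BKV_889, 1 without BKV_729 and 0 without BKV_733), 0 without the 3 libraries, 1 with the Vmn covariate, 3 with the length trend removed and 2 with limma. Calls of receptor genes were lost for Tlr2 without BKV_884 or BKV_889, for Tlr1 and Tlr2 without BKV_729, for Tlr1, Tlr5 and Tlr2 without BKV_733, for Tlr1, Tlr5 and Tlr2 without the 3 libraries, for Tlr1 and Tlr2 with the Vmn covariate, for Tlr1 with the length trend removed and for Tlr2 with the 5 libraries alone.

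Downstream of the receptors no gene of the MYD88 and TRIF list rose: 0 rose and 5 fell of 24 tested (median -0.48). Of the described genes 15.78% fell, and of all genes tested 8.22%. Ikbkb, the kinase that releases NF-κB, had 129.6, 134 and 148 CPM in nephritic libraries, against 239 and 266 CPM in untreated libraries (log2 fold change -0.88 ± 0.15 SE, adjusted p = 0.000982). Tab2, an adaptor of the TAK1 kinase, had 224, 215 and 277 CPM in nephritic libraries, against 417 and 422 CPM in untreated libraries (log2 fold change -0.81 ± 0.18 SE, adjusted p = 0.00548). Peli1, a ubiquitin ligase of the pathway, and Tirap, the adaptor that brings MYD88 to receptors, fell with log2 fold changes of -0.97 and -0.69. Irf3, the interferon regulatory factor downstream of TRIF, had 64.5, 64.3 and 78 CPM in nephritic libraries, against 76.3 and 85.1 CPM in untreated libraries (adjusted p = 0.386). Irf7, which amplifies the type I interferon response, had 2.99, 3.19 and 7.03 CPM in nephritic libraries, against 8.46 and 4.94 CPM in untreated libraries (adjusted p = 0.413). The number that fell was 1 to 6 with single libraries left out (2 without BKV_884 or BKV_889 and 1 without BKV_733) and 0 without the 3 libraries or with the Vmn covariate. Of NF-κB subunits and feedback targets, 2 rose and 0 fell of 22 tested, a share of rises below the 11.3% of all genes tested. They were Nfkbib, an inhibitor that holds NF-κB in the cytoplasm (log2 fold change 1.55 ± 0.30 SE, adjusted p = 0.0026), and Tnfaip2, a target of TNF (log2 fold change 0.74 ± 0.17 SE, adjusted p = 0.00842). Genes of this list that rose numbered 0 to 2 with single libraries left out (0 without BKV_733), 1 without the 3 libraries or with limma and 6 with the Vmn covariate. Calls of signalling genes were lost for Peli1 and Tirap without BKV_884 or BKV_889, for Tab2, Peli1, Tirap, Nfkbib and Tnfaip2 without BKV_733, for Ikbkb, Tab2, Peli1, Tirap and Tnfaip2 without the 3 libraries, for Ikbkb, Tab2, Peli1 and Tirap with the Vmn covariate, for Tirap with the length trend removed and for Tnfaip2 with limma.

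Chemokine and cytokine genes rose in nephritic podocytes without MYD88. In this list 9 rose and 0 fell of 31 tested (median 1.23, or 1.01 with the 5 genes at 0 in a group set to their bound). Of these 31 genes, 13 averaged 10 CPM or more in either MyD88pko group, and 11.3% of all genes tested rose. Cxcl1, which attracts neutrophils (GRCm38 chr5:90891241-90893115), had 19.7, 22.4 and 46.6 CPM in nephritic libraries, against 2.99 and 3.07 CPM in untreated libraries (log2 fold change 3.29 ± 0.40 SE, adjusted p = 7.11e-05), with BKV_890 highest. Cxcl10, which is induced by interferon and attracts T cells, had 23.5, 26.7 and 27.7 CPM in nephritic libraries, against 6.37 and 8.81 CPM in untreated libraries (log2 fold change 1.77 ± 0.31 SE, adjusted p = 0.00121). Cxcl12, made by podocytes and sensed by endothelial cells, had 248, 209 and 228 CPM in nephritic libraries, against 88.3 and 107 CPM in untreated libraries (log2 fold change 1.23 ± 0.20 SE, adjusted p = 0.000765). Cxcl15, a chemokine of the mouse lung, had 17.1, 15.5 and 6.2 CPM in nephritic libraries, against 2.99 and 3.2 CPM in untreated libraries (log2 fold change 2.06 ± 0.50 SE, adjusted p = 0.0102). The number that rose was 5 to 8 with single libraries left out (5 without BKV_729 or BKV_733) and 5 without the 3 libraries or with the Vmn covariate; Cxcl1, Cxcl10 and Cxcl12 held in each of these fits. The kB site, bound by NF-κB, was found in 7 of the 21 chemokine and cytokine promoters at hand and in 8.18% of all promoters, and Cxcl1, Cxcl10 and Csf1 were the 3 genes with a site among 8 that rose (Csf1 was named after its values were seen). No gene in this list differed between the response of MyD88pko and of PodTOM podocytes by the test of that difference. The call was lost for Cxcl15 without BKV_729 or BKV_733 and for Cxcl15 without the 3 libraries or with the Vmn covariate or with limma.

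Of interferon-stimulated genes, 5 rose and 3 fell of 49 tested (median 0.49), shares that both lie below those of all genes tested (11.3% and 8.22%). The number that rose was 3 to 6 with single libraries left out (3 without BKV_884 or BKV_889 or BKV_733) and 3 without the 3 libraries or with the length trend removed, and the number that fell 2 to 3 with single libraries left out and 1 without the 3 libraries. Ifi27 had 38.2, 37.8 and 43.4 CPM in nephritic libraries, against 12 and 6.21 CPM in untreated libraries (log2 fold change 2.13 ± 0.30 SE, adjusted p = 0.000203). Ifitm2, which hinders viral entry, had 526, 490.4 and 659 CPM in nephritic libraries, against 279 and 296 CPM in untreated libraries (log2 fold change 0.96 ± 0.18 SE, adjusted p = 0.00199). Isg15, a ubiquitin-like modifier, was low throughout, with 4.2, 4.26 and 2.59 CPM in nephritic libraries, against 0.846 and 1.14 CPM in untreated libraries (log2 fold change 1.89 ± 0.58 SE, adjusted p = 0.0323). Stat2, which carries the type I interferon signal to the nucleus, fell, with 32.1, 35.1 and 30.2 CPM in nephritic libraries, against 73.4 and 59.1 CPM in untreated libraries (log2 fold change -1.03 ± 0.17 SE, adjusted p = 0.000869). The guanylate-binding protein gene Gbp5 fell too, with 20.3, 23.3 and 20.9 CPM in nephritic libraries, against 40.6 and 45.5 CPM in untreated libraries (log2 fold change -1.0 ± 0.18 SE, adjusted p = 0.00135). Ifit1, which binds foreign RNA, had 1.62, 2.63 and 4.28 CPM in nephritic libraries, against 2.02 and 1.27 CPM in untreated libraries. Ifi44 had 18.9, 21.7 and 7.79 CPM in nephritic libraries, against 6.7 and 11.3 CPM in untreated libraries. Ifitm3 had 10.9, 10.1 and 7.39 CPM in nephritic libraries, against 9.17 and 2.2 CPM in untreated libraries. None of these 3 genes was called (adjusted p = 0.358, 0.125 and 0.306). Genes of the Ifitm family are close copies of each other, so that estimated counts can be shared out between them. With the length trend removed the log2 fold change of Ifitm2 was -0.02 and it was no longer called. Interferon gene calls were lost for Isg15 without BKV_884 or BKV_889 or BKV_729 or BKV_733, for Isg15 and Gbp5 without the 3 libraries, for Isg15 with the Vmn covariate or with no low-count filter and for Ifitm2 and Isg15 with the length trend removed.

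The promoters of interferon-stimulated genes often carry an element (ISRE) whose core, GAAANNGAAA, was searched on both strands. It was found in 22 of the 38 list promoters at hand (57.9%), against 3.49% of all 27025, and in 2 of the 4 genes that rose. Both are shown with every match in capitals, since they are the interferon-stimulated genes with this core that rose. Isg15 holds 3 overlapping matches that begin 78 bases before its start, and Ifitm2 1 match that begins 46 bases before it. The sequences are chr4:156200769-156201068 and chr7:140955912-140956211 of GRCm38.p6, both from the minus strand and credited to RefSeq.
Isg15 promoter: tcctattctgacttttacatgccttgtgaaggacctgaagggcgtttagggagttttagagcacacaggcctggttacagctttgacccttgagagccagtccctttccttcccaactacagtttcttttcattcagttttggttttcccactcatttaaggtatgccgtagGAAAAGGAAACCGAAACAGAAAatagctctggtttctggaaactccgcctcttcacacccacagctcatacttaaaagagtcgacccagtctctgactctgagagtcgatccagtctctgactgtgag
Ifitm2 promoter: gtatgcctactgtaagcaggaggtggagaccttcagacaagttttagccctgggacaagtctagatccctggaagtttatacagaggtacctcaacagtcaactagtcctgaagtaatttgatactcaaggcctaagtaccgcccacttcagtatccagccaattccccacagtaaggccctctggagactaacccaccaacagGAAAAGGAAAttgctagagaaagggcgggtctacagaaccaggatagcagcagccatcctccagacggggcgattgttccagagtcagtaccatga

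Some genes of antigen presentation rose. Of MHC class I and immunoproteasome genes, 8 rose and 0 fell of 23 tested (median 0.61), where 11.3% of all genes tested rose. The other 15 were not called. Summed over the list the level was 4999, 4304 and 5452 CPM in nephritic libraries, against 4526 and 4680 CPM in untreated libraries, with overlap. H2-K1, a classical MHC class I heavy chain (GRCm38 chr17:33996017-34000347), had 415, 352 and 473 CPM in nephritic libraries, against 87.3 and 86.2 CPM in untreated libraries (log2 fold change 2.25 ± 0.19 SE, adjusted p = 4.32e-06). B2m (β2-microglobulin, the light chain) had 467, 406 and 574 CPM in nephritic libraries, against 98.8 and 106 CPM in untreated libraries (log2 fold change 2.24 ± 0.26 SE, adjusted p = 5.22e-05). Psmb9, an immunoproteasome subunit, had 4.45, 4.39 and 7.79 CPM in nephritic libraries, against 0.26 and 0.334 CPM in untreated libraries (log2 fold change 4.20 ± 0.54 SE, adjusted p = 0.000107). Psme2, of the proteasome activator, had 30.8, 31.8 and 27.2 CPM in nephritic libraries, against 6.83 and 8.88 CPM in untreated libraries (log2 fold change 1.93 ± 0.32 SE, adjusted p = 0.000822). In all 4 the groups did not overlap. The number that rose was 7 to 8 with single libraries left out, 6 without the 3 libraries, 5 with the Vmn covariate and 7 with the length trend removed. MHC class I genes are close copies, and counts of H2-K1 may include reads of its relatives. Of the genes named, the call was lost for Psme2 with the Vmn covariate.

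Of receptors and mediators of JAK-STAT signalling, 0 rose and 7 fell of 21 tested (median -0.55), where 15.78% of the described genes fell. Socs3, the feedback inhibitor of IL-6 signalling, had 101, 103 and 139 CPM in nephritic libraries, against 365 and 414 CPM in untreated libraries (log2 fold change -1.77 ± 0.22 SE, adjusted p = 8.8e-05). Il6ra, the IL-6 receptor, had 219.7, 246 and 299.9 CPM in nephritic libraries, against 502 and 486 CPM in untreated libraries (log2 fold change -0.95 ± 0.16 SE, adjusted p = 0.000893). The kinase gene Jak1 and the interferon-γ receptor gene Ifngr1 fell with log2 fold changes of -0.76 and -0.76. Ifnar2, of the type I interferon receptor, had 23.4, 21.1 and 32.9 CPM in nephritic libraries, against 20 and 30.5 CPM in untreated libraries (adjusted p = 0.937). The number that fell was 3 to 10 with single libraries left out (4 without BKV_884 or BKV_889 or BKV_729 and 3 without BKV_733), 3 without the 3 libraries and 2 with the Vmn covariate. In this pathway calls were lost for Ifngr1 without BKV_889 or BKV_733, for Jak1 without BKV_729, for Jak1 and Ifngr1 without the 3 libraries and for Il6ra, Jak1 and Ifngr1 with the Vmn covariate.

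Genes for ribosomes and mitochondrial energy supply rose. Of all genes tested 11.3% rose and 8.22% fell. Of cytosolic ribosomal protein genes, 50 rose and 0 fell of 59 tested (median 1.08). Rpl10a had 131, 134 and 179 CPM in nephritic libraries, against 35.8 and 40.7 CPM in untreated libraries (log2 fold change 1.95 ± 0.20 SE, adjusted p = 2.1e-05). Rpl7a had 142, 129 and 174 CPM in nephritic libraries, against 49.2 and 46.2 CPM in untreated libraries (log2 fold change 1.64 ± 0.18 SE, adjusted p = 2.91e-05). Of nuclear genes of oxidative phosphorylation, 32 rose and 0 fell of 42 tested (median 1.17). Ndufa1, a subunit of complex I, had 52.6, 46 and 55.2 CPM in nephritic libraries, against 8.71 and 6.54 CPM in untreated libraries (log2 fold change 2.75 ± 0.24 SE, adjusted p = 5.02e-06). Atp5b, the β subunit of ATP synthase, had 657, 602 and 778 CPM in nephritic libraries, against 201 and 135 CPM in untreated libraries (log2 fold change 2.02 ± 0.22 SE, adjusted p = 2.91e-05). Ribosomal genes that rose numbered 36 to 51 with single libraries left out, 46 without the 3 libraries and 26 with the length trend removed, and oxidative phosphorylation genes 21 to 34 with single libraries left out (21 without BKV_733), 25 without the 3 libraries and 21 with the length trend removed. These are short transcripts, with a median effective length of 690 and 882 bases. With the length trend of each library removed, 26 of 59 ribosomal genes still rose (median 0.41) and 0 fell, and 21 of 42 oxidative phosphorylation genes rose (median 0.57) and 4 fell. In that fit the log2 fold changes were 1.20 for Rpl10a, 1.48 for Ndufa1 and 1.79 for Atp5b, all still called. Ribosomal protein genes have many processed pseudogenes, and reads may have been shared out between them.

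Some genes of the mitochondrial genome fell. The complex I gene mt-Nd4l had 608, 606 and 913 CPM in nephritic libraries, against 2136 and 2772 CPM in untreated libraries (log2 fold change -1.79 ± 0.26 SE, adjusted p = 0.000393). The complex I gene mt-Nd1 had 1671, 1748 and 2541 CPM in nephritic libraries, against 3528 and 4321 CPM in untreated libraries (log2 fold change -0.98 ± 0.25 SE, adjusted p = 0.0122). The complex IV gene mt-Co1 had 10619, 10042 and 14869 CPM in nephritic libraries, against 19674 and 20096 CPM in untreated libraries (log2 fold change -0.75 ± 0.20 SE, adjusted p = 0.0143). In contrast mt-Co2 rose (log2 fold change 0.68 ± 0.20 SE, adjusted p = 0.023), and mt-Cytb was not called, with 3781, 3864 and 5150.2 CPM in nephritic libraries, against 5202 and 5574 CPM in untreated libraries (adjusted p = 0.229). With the length trend removed mt-Co2 had -0.27 and was not called. Mitochondrial calls were lost for mt-Nd1 and mt-Co1 without BKV_884 or BKV_889, for mt-Co1 and mt-Co2 without BKV_729, for mt-Nd1, mt-Co1 and mt-Co2 without BKV_733, for mt-Nd4l, mt-Nd1 and mt-Co1 without the 3 libraries, for mt-Nd1, mt-Co1 and mt-Co2 with the Vmn covariate and for mt-Co2 with the length trend removed.

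**Figure D3:**
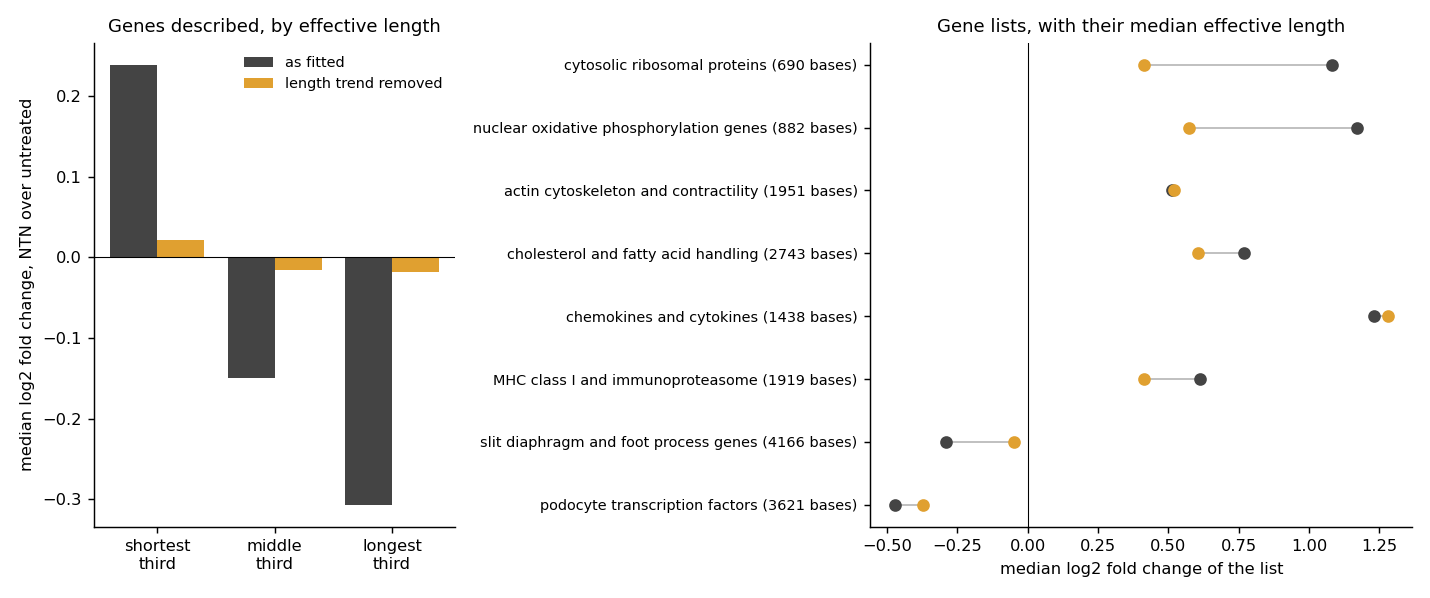
Fold change and transcript length in MyD88pko podocytes. Left, bars give the median log2 fold change (NTN over untreated) of the described genes in 3 equally large groups by effective length, as fitted (dark) and with the length trend of each library removed (orange). Right, the median log2 fold change of 8 gene lists in the same 2 fits, with the list's median effective length in brackets. The ribosomal and oxidative phosphorylation medians shrink to 0.41 and 0.57 and stay above 0, whereas the actin median is 0.51 and 0.52.

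Of glycolysis genes, 7 rose and 1 fell of 22 tested, where 11.3% of all genes tested rose. Gapdh had 541, 489 and 716 CPM in nephritic libraries, against 114 and 121 CPM in untreated libraries (log2 fold change 2.31 ± 0.19 SE, adjusted p = 4.32e-06). Aldoa (aldolase) and Eno1 (enolase) rose by 1.50 and 1.47 on the log2 scale, and Pfkfb3, which sets fructose-2,6-bisphosphate, fell (log2 fold change -1.08). Of cholesterol and fatty acid genes, 12 rose and 3 fell of 31 tested (median 0.77). The sterol synthesis genes Idi1 and Cyp51 rose with log2 fold changes of 1.30 and 1.27. Abca1 was among the genes that fell. Of oxidative stress genes, 9 rose and 0 fell of 26 tested. Fth1 and Ftl1, the ferritin chains that store iron, had log2 fold changes of 1.77 and 1.67, Sod1 (superoxide dismutase) 1.62 and Txn1 (thioredoxin) 1.75. Fth1 had 315, 277 and 351 CPM in nephritic libraries, against 89 and 95.6 CPM in untreated libraries. Of annexin, S100 and galectin genes, 10 rose and 0 fell of 19 tested (median 0.82), with Anxa3 and S100a10 at log2 fold changes of 0.89 and 1.19 beside S100a6. With the length trend removed 12 cholesterol and fatty acid genes rose and 2 fell, 6 oxidative stress genes rose and 2 fell, and 7 annexin, S100 and galectin genes rose and 2 fell. Annexin, S100 and galectin genes that rose numbered 5 to 10 with single libraries left out (5 without BKV_729 and 6 without BKV_733), 5 without the 3 libraries and 4 with the Vmn covariate. Glycolysis genes that rose numbered 4 to 7 with single libraries left out (4 without BKV_733) and 6 without the 3 libraries. Cholesterol and fatty acid genes that rose numbered 5 to 11 with single libraries left out (5 without BKV_733) and 8 without the 3 libraries, and those that fell 2 to 3 with single libraries left out and 1 without the 3 libraries or with the Vmn covariate. Oxidative stress genes that rose numbered 5 to 10 with single libraries left out (5 without BKV_733) and 8 without the 3 libraries. Calls of this group were lost for Anxa3 without BKV_729, for Pfkfb3 without BKV_733, for Pfkfb3 without the 3 libraries or with the Vmn covariate and for S100a10 with the length trend removed.

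Immediate early genes, which respond within minutes to many stimuli and to tissue dissociation, fell in some members. In this list 2 rose and 7 fell of 30 tested, where 15.78% of the described genes fell. Klf6 had 793, 784 and 1201 CPM in nephritic libraries, against 1953 and 1953 CPM in untreated libraries (log2 fold change -1.08 ± 0.24 SE, adjusted p = 0.00647). Atf3 had 224, 240.1 and 317 CPM in nephritic libraries, against 559 and 499 CPM in untreated libraries (log2 fold change -1.02 ± 0.20 SE, adjusted p = 0.00278). Btg2 fell too (log2 fold change -0.74), while Gadd45b, a stress sensor, rose (log2 fold change 1.47 ± 0.22 SE, adjusted p = 0.000338). Immediate early genes that fell numbered 1 to 7 with single libraries left out (2 without BKV_884 or BKV_889 or BKV_729 and 1 without BKV_733) and 0 without the 3 libraries or with the Vmn covariate, and those that rose 1 to 2 with single libraries left out (1 without BKV_889 or BKV_890 or BKV_733), 1 without the 3 libraries or with limma and 4 with DESeq2. Of genes of the unfolded protein response and chaperones, 6 rose and 1 fell of 33 tested, where 12.87% of the described genes rose. Dnajb1, a heat shock co-chaperone, had 218, 181 and 287 CPM in nephritic libraries, against 41 and 22.8 CPM in untreated libraries (log2 fold change 2.84 ± 0.48 SE, adjusted p = 0.00248). Atf4, the transcription factor of the integrated stress response, had 216, 219 and 281 CPM in nephritic libraries, against 119.9 and 117 CPM in untreated libraries (log2 fold change 1.01 ± 0.19 SE, adjusted p = 0.00192). The sensor gene Atf6 fell (log2 fold change -0.77). Of this list the genes that rose numbered 3 to 6 with single libraries left out (3 without BKV_733) and 5 without the 3 libraries, and those that fell 0 to 6 with single libraries left out (6 without BKV_890 and 0 without BKV_733), 0 without the 3 libraries or with the Vmn covariate, 3 with the length trend removed, 7 with limma and 2 with DESeq2. Of ubiquitin ligases and hydrolases, 1 rose and 8 fell of 25 tested. Huwe1, Itch and Nedd4 fell with log2 fold changes of -0.90, -0.69 and -0.60, and the muscle ligase gene Trim63 rose with 1.55. The ubiquitin genes that fell numbered 1 to 11 with single libraries left out (3 without BKV_884, 2 without BKV_889 or BKV_733 and 1 without BKV_729), 0 without the 3 libraries or with the Vmn covariate and 5 with the length trend removed. Among stress and ubiquitin genes, calls were lost for Btg2 without BKV_884, for Btg2 and Nedd4 without BKV_889, for Btg2, Itch, Nedd4 and Trim63 without BKV_729, for Klf6, Btg2, Atf6 and Nedd4 without BKV_733, for Klf6, Atf3, Btg2, Atf6, Huwe1, Itch, Nedd4 and Trim63 without the 3 libraries or with the Vmn covariate and for Nedd4 and Trim63 with the length trend removed.

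Of cell cycle genes, 5 rose and 1 fell of 33 tested, near the 11.3% of all genes tested that rose. Ccnd1 (cyclin D1), which drives entry into the cycle, had 56.5, 46.2 and 60.9 CPM in nephritic libraries, against 12.4 and 12.2 CPM in untreated libraries (log2 fold change 2.15 ± 0.23 SE, adjusted p = 2.62e-05). Cdkn1c (p57), an inhibitor that keeps podocytes quiescent, had 1090.4, 953 and 1394 CPM in nephritic libraries, against 577 and 519 CPM in untreated libraries (log2 fold change 1.06 ± 0.19 SE, adjusted p = 0.00118). Pttg1 (securin) and the kinase gene Cdk6 rose as well (log2 fold changes 2.32 and 1.0), and Ccne2 (cyclin E2) fell (log2 fold change -1.53). Of VEGF, angiopoietin and guidance genes, 2 rose and 8 fell of 30 tested. Of all genes tested 8.22% fell, and of the described genes 15.78%. The median log2 fold change of the list was nevertheless above 0, at 0.37, and at 0.55 with the length trend removed. The semaphorin genes Sema5a and Sema3e and the receptor gene Nrp1 fell with log2 fold changes of -0.71, -0.65 and -0.72. In this list the genes that fell numbered 2 to 9 with single libraries left out (3 without BKV_884, 4 without BKV_889 and 2 without BKV_729 or BKV_733), 1 without the 3 libraries or with the Vmn covariate and 3 with the length trend removed, and those that rose 0 to 5 with single libraries left out (1 without BKV_884 or BKV_889 or BKV_729, 5 without BKV_890 and 0 without BKV_733), 0 without the 3 libraries or with the Vmn covariate or with limma and 4 with DESeq2. Of lysosome and autophagy genes, 6 rose and 0 fell of 30 tested, where 12.87% of the described genes rose. Cd63, Hexa, Ctsb and Npc2 rose with log2 fold changes of 1.48, 1.59, 0.77 and 0.71. Lysosome genes that rose numbered 2 to 8 with single libraries left out (2 without BKV_729 and 3 without BKV_733) and 3 without the 3 libraries. Of WNT and Notch genes, 3 rose and 3 fell of 29 tested. Wnt5a, a ligand, had 19.4, 27.2 and 10.8 CPM in nephritic libraries, against 5.46 and 9.15 CPM in untreated libraries (log2 fold change 1.39 ± 0.37 SE, adjusted p = 0.0155). WNT and Notch genes that rose numbered 0 to 3 with single libraries left out (1 without BKV_884 or BKV_733 and 0 without BKV_729), 0 without the 3 libraries or with the Vmn covariate or with limma and 5 with the length trend removed or with DESeq2, and those that fell 0 to 5 with single libraries left out (0 without BKV_884 or BKV_889 or BKV_729 or BKV_733 and 5 without BKV_890), 0 without the 3 libraries or with the Vmn covariate and 1 with the length trend removed. Of complement genes, 2 rose and 1 fell of 22 tested. Clu (clusterin), a complement inhibitor, had 28, 19.5 and 41.8 CPM in nephritic libraries, against 1.3 and 1.67 CPM in untreated libraries (log2 fold change 4.32 ± 0.65 SE, adjusted p = 0.000926). The complement component gene C2 fell (log2 fold change -1.32). Complement genes that rose numbered 1 with single libraries left out and 1 without the 3 libraries or with the Vmn covariate or with limma. The shares of WNT and Notch genes and of complement genes that rose lay below the 11.3% of all genes tested. In these groups calls were lost for Sema3e without BKV_884, for Wnt5a without BKV_889, for Sema3e, Nrp1, Ctsb, Npc2 and Wnt5a without BKV_729, for Sema5a, Sema3e and Npc2 without BKV_733, for Ccne2, Sema5a, Sema3e, Nrp1, Npc2, Wnt5a and C2 without the 3 libraries or with the Vmn covariate, for Sema5a and Sema3e with the length trend removed and for Npc2 and Wnt5a with limma.

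**Figure D4:**
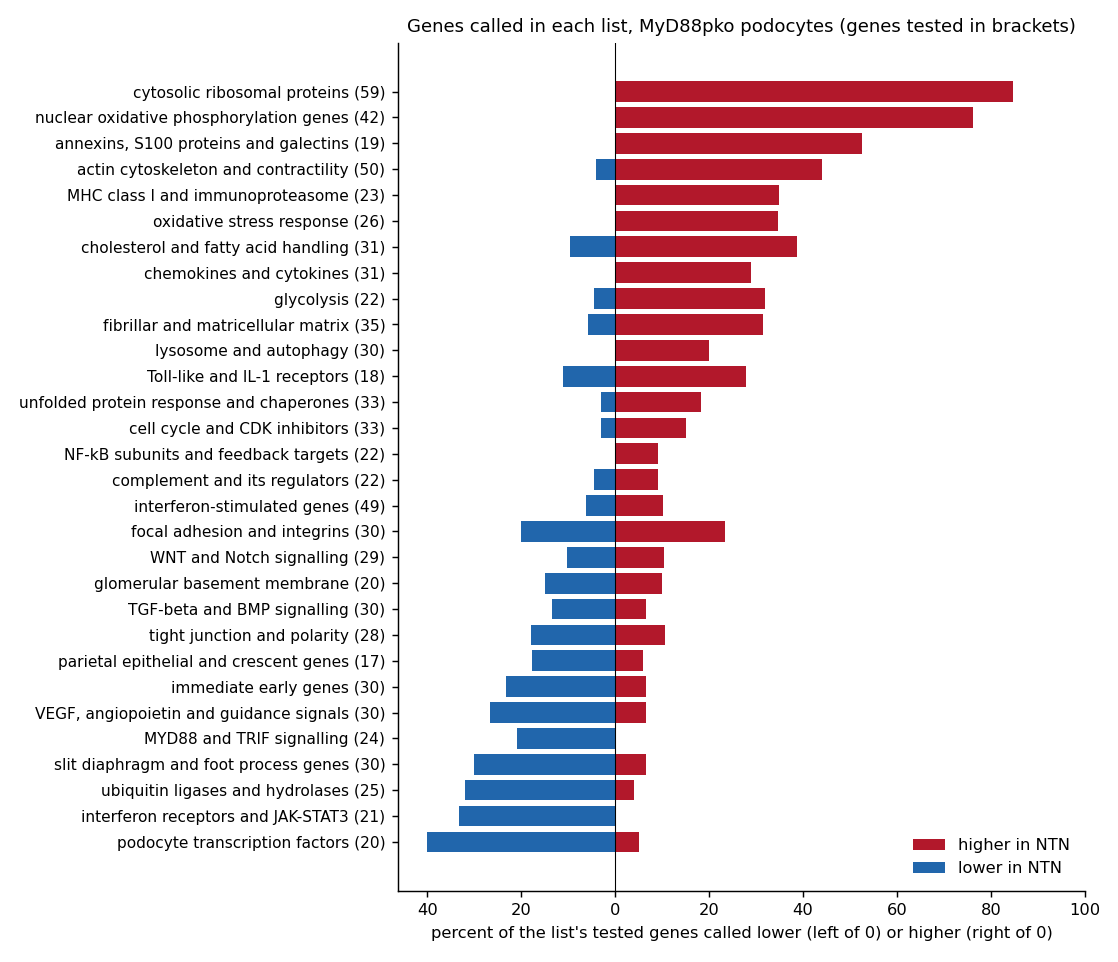
Genes called in 30 gene lists with at least 15 tested genes, markers of other cells left out. Bars give the percent of each list's tested genes that fell (blue, left of 0) and rose (red, right of 0) in nephritic against untreated MyD88pko podocytes, with the number tested in brackets. Ribosomal protein genes lie at the top (50 of 59 rose) and podocyte transcription factors at the bottom (8 of 20 fell).

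Markers of other kidney cells were low, and some moved with NTN. In bulk samples fewer cells of a type and less RNA per cell cannot be told apart. Summed over 16 endothelial markers the level was 150.5, 136 and 127 CPM in nephritic libraries, against 126 and 92.1 CPM in untreated libraries. Plat, the other member of that list, is left out of the sum because it was abundant in these podocyte libraries (values above). Cdh5 (VE-cadherin) rose, with 13.9, 10.3 and 15.3 CPM in nephritic libraries, against 4.16 and 4.34 CPM in untreated libraries (adjusted p = 0.0026). Emcn (endomucin) rose, with 18.5, 16 and 14.8 CPM in nephritic libraries, against 5.2 and 2 CPM in untreated libraries (adjusted p = 0.0163). Pecam1 had 16.7, 16.6 and 15.6 CPM in nephritic libraries, against 33 and 18.4 CPM in untreated libraries and was not called (adjusted p = 0.0678). Kdr, the VEGF receptor, had 19.6, 17.7 and 12.6 CPM in nephritic libraries, against 12.4 and 12.2 CPM in untreated libraries and was not called (adjusted p = 0.446). Mesangial and smooth muscle markers summed to 245, 205 and 202 CPM in nephritic libraries, against 179 and 183 CPM in untreated libraries, with 1 of 15 called (Lrrc32, log2 fold change 1.18). Acta2 (smooth muscle actin) had 6.31, 6.5 and 5.54 CPM in nephritic libraries, against 0.52 and 3.47 CPM in untreated libraries (adjusted p = 0.0537). Myh11, which defines smooth muscle, had 3.52, 1.68 and 0.796 CPM in nephritic libraries, against 2.34 and 4.07 CPM in untreated libraries. Macrophage and monocyte markers summed to 80.1, 93.9 and 76.5 CPM in nephritic libraries, against 101 and 82.2 CPM in untreated libraries. Of 16 tested 3 rose and 1 fell, and 4 of the 16 averaged 10 CPM or more in either MyD88pko group. Of all genes tested 11.3% rose and 8.22% fell. The macrophage genes that rose numbered 0 to 4 with single libraries left out (1 without BKV_884 or BKV_889 and 0 without BKV_729 or BKV_733), 0 without the 3 libraries or with the Vmn covariate and 1 with limma. Csf1r, a receptor of macrophages, fell, with 12.2, 15 and 17.2 CPM in nephritic libraries, against 39.1 and 37.5 CPM in untreated libraries (log2 fold change -1.37 ± 0.22 SE, adjusted p = 0.000564). Cd68 had 22.7, 24.5 and 37.2 CPM in nephritic libraries, against 44.6 and 21.6 CPM in untreated libraries, and Lyz2 was at or below 1.21 CPM in all 5. Adgre1 (F4/80) was at 0 in both untreated libraries and at 1.86, 1.77 and 0.464 CPM in nephritic ones, at least 13.8-fold higher with the same floor.

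No neutrophil or lymphocyte marker was called in the main edgeR fit. Without BKV_890 1 neutrophil marker and 2 lymphocyte markers rose. With DESeq2 1 neutrophil marker rose and 1 fell, and 1 lymphocyte marker rose. The 10 neutrophil markers summed to 40, 43.5 and 21.4 CPM in nephritic libraries, against 18.6 and 27.8 CPM in untreated libraries. The 10 lymphocyte markers summed to 64.8, 74.4 and 36 CPM in nephritic libraries, against 36.4 and 47.4 CPM in untreated libraries. S100a8, an abundant mRNA of neutrophils, was at 0 in 4 of 5 libraries and at 0.086 CPM in BKV_889. Antigen-presenting and pan-leukocyte genes summed to 80.6, 86.9 and 56.5 CPM in nephritic libraries, against 50 and 55.5 CPM in untreated libraries, without overlap. Of these 12 genes 1 rose and 0 fell, where 11.3% of all genes tested rose, and 0 rose with any nephritic MyD88pko library left out. Among them, Ptprc (CD45) had 7.03, 9.82 and 4.94 CPM in nephritic libraries, against 6.11 and 4.87 CPM in untreated libraries (adjusted p = 0.525). Markers of the proximal tubule summed to 66.6, 78.3 and 46 CPM in nephritic libraries, against 74.5 and 52.7 CPM in untreated libraries over 15 genes. Markers of the distal tubule and collecting duct summed to 61.3, 75.2 and 40.4 CPM in nephritic libraries, against 55.8 and 30.6 CPM in untreated libraries over 12 genes, with Aqp2 at 0 in all but BKV_729. Red cell genes summed to at most 7.72 CPM in a nephritic library and 4.16 CPM in an untreated one. The part of other cells in the gene changes above was not tested. Marker calls were lost for Adgre1 without BKV_884 or BKV_889, for Adgre1 and Lrrc32 without BKV_729, for Adgre1 and Emcn without BKV_733, for Adgre1, Csf1r, Emcn, Lrrc32 and Plat without the 3 libraries, for Adgre1, Emcn, Lrrc32 and Plat with the Vmn covariate and for Lrrc32 with limma.

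The response without MYD88 was then set against that of PodTOM podocytes, which have it; the 2 comparisons share no library. In PodTOM podocytes 15.9% of all genes tested rose and 9.93% fell. Of the 1198 described genes that rose in MyD88pko podocytes, 858 (71.62%) also rose in PodTOM podocytes, and these are 66.56% of the 1289 that rose there. Of the 1468 that fell, 1044 (71.12%) also fell in PodTOM podocytes, 56.34% of the 1853 there. Rnf31, which encodes a ubiquitin ligase subunit of the NF-κB pathway and was picked after its values were seen, was the 1 gene called in opposite directions. Its log2 fold change was -0.61 in MyD88pko and 0.69 in PodTOM podocytes, and the test of the difference gave an adjusted p of 0.348. Across the 9305 genes, which are not independent replicates, the log2 fold changes of the genotypes had a Pearson correlation of 0.85 and a Spearman correlation of 0.805. The length trend (above) was present in both comparisons, and so was the Vmn signal, at 443, 280.1 and 212 CPM in nephritic and 98.7, 72.4 and 73.1 CPM in untreated PodTOM libraries.

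By the test of the difference itself, no gene tested (0%) had a response that was higher in MyD88pko than in PodTOM podocytes, and 1 gene (0.00472%), the gene model Gm7334, had a lower one. At an unadjusted p under 0.05 there were 585 higher and 647 lower, and DESeq2 called 23 and 24. An effect that was called in only 1 genotype is therefore not shown to differ. Tagln had a log2 fold change of 4.50 in MyD88pko and 3.96 in PodTOM podocytes (adjusted p for the difference = 0.897). Thsd7a had -2.27 in MyD88pko and -2.17 in PodTOM podocytes, H2-K1 2.25 and 2.24, and Cxcl1 3.29 and 2.96, and their adjusted p for the difference was at its upper limit of 1. Of interferon-stimulated genes 5 rose in MyD88pko and 18 in PodTOM podocytes, and of endothelial markers 2 and 10, yet no member of any of the 40 lists was called for the difference. Among the genes named, the lowest adjusted p for the difference after Gm7334 was 0.348, shared by Rnf31, Cldn1 and Gbp5. Cldn1 had log2 fold changes of 1.83 in MyD88pko and 0.39 in PodTOM podocytes, with 67.7, 74.2 and 75.5 CPM in nephritic and 52.7, 51.5 and 61.3 CPM in untreated PodTOM libraries. Gbp5 had -1.0 in MyD88pko and 0.24 in PodTOM podocytes, with 36.5, 37.8 and 34.5 CPM in nephritic and 29.3, 29.3 and 33.4 CPM in untreated PodTOM libraries. Neither difference passed the threshold.

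**Figure D5:**
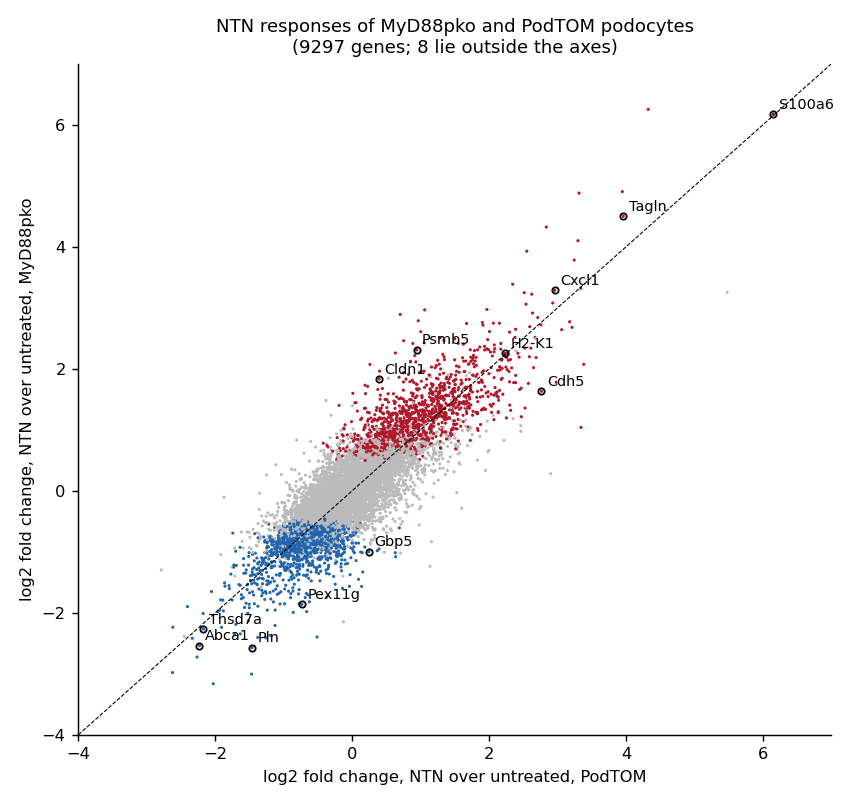
NTN responses of MyD88pko podocytes (y axis) and PodTOM podocytes (x axis), both as log2 fold change of NTN over untreated. Each point is 1 of 9297 described genes, 8 lie outside the axes, colours mark genes that rose (red) or fell (blue) in MyD88pko podocytes, and the dashed line marks equal responses. Tagln and S100a6 lie at the upper end and Thsd7a and Abca1 at the lower end of a cloud with a Pearson correlation of 0.85.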

How the data were processed

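RNA was sequenced from sorted podocytes in 11 libraries of 4 groups, and groups were taken from the labels. The authors trimmed reads with cutadapt 3.5 and quantified transcripts with kallisto 0.43.1 against Ensembl 90, and the deposited files hold estimated counts and effective lengths per transcript for each library. Estimated counts were summed per gene with GENCODE M21 (GRCm38) and rounded, with 107987 of 109282 transcripts matched (0.467% to 0.638% of counts unmatched). CPM are relative to each library's total over the genes that passed the low-count filter, multiplied by its TMM factor. TPM was recomputed from the deposited counts and effective lengths.

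Genes were filtered with filterByExpr (minimum count 10), scaled by TMM and tested with edgeR 4.0.16 (robust quasi-likelihood F test; R 4.3.3) in 1 fit of all 4 groups, so that the 2 untreated MyD88pko libraries share the spread of the others. Adjusted p-values in the text are from this fit unless another tool is named. SE is the absolute log2 fold change over the square root of F. An exact permutation test of 3 against 2 libraries could not go below 0.1. The fit was also run on simulated counts, whose outcome is not given here. These counts held no length trend and no difference in Vmn signal between libraries.

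Alternatives were DESeq2 1.42.0 (its test, and its size factors in edgeR), limma 3.58.1 on log2(TPM + 1) for genes of at least 1 TPM on average, no low-count filter, a filter at 10 CPM, the 5 MyD88pko libraries alone, a scale from protein-coding genes, each library left out, the 3 nephritic libraries with most Vmn signal left out, and Vmn signal as a covariate. An offset that removes each library's trend with effective length was added after seeing the data. The labels state that 6 libraries were pooled for sequencing without naming them, so no batch could be entered.

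Named genes were Myd88 and genes the study names, the 15 genes with the lowest adjusted p in each direction without overlap between groups, up to 4 called members per gene list and up to 2 in its less frequent direction, the called genes of the difference, abundant genes and cell markers. The described genes and the 40 lists were chosen with earlier results of these data known. Some items are not reported here.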

Additional observations from a re-analysis of the deposited data

Results flagged for a closer look

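The NTN responses of MyD88pko and PodTOM podocytes differed by the test of the difference itself in 1 gene, the processed pseudogene Gm7334. It had 0 CPM in all 3 nephritic MyD88pko libraries, against 10.9 and 8.48 CPM in the untreated MyD88pko libraries, and 5.53, 1.62 and 8.63 CPM in nephritic PodTOM libraries, against 1.78, 2.38 and 3.96 CPM in untreated PodTOM libraries. The fitted difference in log2 fold change was -11.58 (adjusted p = 0.00218, edgeR), a value that depends on the prior count because 1 group is at 0. No gene was called lower with limma on log2(TPM + 1), so the call of Gm7334 was not made there. In the fit with the filter at 10 CPM Gm7334 was not tested, because no group averaged 10 CPM for it. That fit therefore says nothing about its call.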

How the results depend on the processing

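No paired analysis was possible because the labels give no replicate number that the groups share. Counts of changed genes depended on which libraries entered. With Vmn signal as a covariate 807 of all genes rose and 229 fell (701 and 169 of the described genes), and without the 3 libraries 687 and 182 did (591 and 150 described). With limma on log2(TPM + 1), 1451 genes rose. Leaving out single libraries gave 665 to 3189 genes that rose and 604 to 2330 that fell (466 to 1246 and 519 to 2050 described). For the difference between the responses, DESeq2 called 23 higher and 24 lower genes and the fit with no low-count filter 34 and 58, whereas 0 were lower with limma, with the filter at 10 CPM and without the 3 libraries, and 1 to 4 were lower with single libraries left out. Log2 fold changes changed sign for Epha4 (-0.64, limma), for Sema3d (-0.33), Tlr1 (-0.0041) and Wnt5a (-0.042) with the Vmn covariate, and for Gm20594 (-0.98), Ifitm2 (-0.019) and mt-Co2 (-0.27) with the length trend removed. The cause was not tested. Of 172 named genes that were called, 83 kept the call and the sign in every alternative, 45 lost either in 1 to 3 and 44 in 4 or more. The covariate ended 72 calls, the fit without the 3 libraries 71, leaving out BKV_733 55, BKV_729 42, the length trend 22 and limma 18. The absence of a call was not always stable either. Of 48 named genes that were not called, some had an adjusted p under 0.05 in an alternative fit. Among these were Podxl, Wt1, Synpo, Actg1, Myh9, Irf3, Ifi44, Ifitm3, mt-Cytb, Acta2 and Pecam1. With 2 untreated libraries at 15784354 and 15893635 counts, changes of genes near 1 CPM are the least certain.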

Other observations

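Several genes outside the lists changed, and these were chosen after their values were seen. Igfbp2, which binds insulin-like growth factors, had 13.8, 11.8 and 13.4 CPM in nephritic libraries, against 0.325 and 0 CPM in untreated libraries. Foxs1, a forkhead transcription factor gene, had 24.1, 21.8 and 23.3 CPM in nephritic libraries, against 3.06 and 1.87 CPM in untreated libraries. Epha6, an ephrin receptor gene, had 20.8, 19.6 and 29.6 CPM in nephritic libraries, against 1.5 and 0.067 CPM in untreated libraries, and Bok, a relative of BCL2, had 9.74, 9.04 and 14.1 CPM in nephritic libraries, against 0.715 and 0 CPM in untreated libraries. In these genes all 3 nephritic libraries lay above both untreated libraries, and the adjusted p (edgeR) was 0.000267 for Igfbp2, 0.000156 for Foxs1, 0.00464 for Epha6 and 0.00168 for Bok. Unc5cl, whose product is linked to NF-κB signalling, had 2.99, 2.58 and 1.96 CPM in nephritic libraries, against 17.9 and 22.4 CPM in untreated libraries and fell (log2 fold change -3.01 ± 0.35 SE, adjusted p = 4.83e-05).

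Other large fitted changes followed the libraries with most Vmn signal. Mid1, a ubiquitin ligase gene at the pseudoautosomal boundary of the mouse X chromosome, had 3148, 4466 and 459.6 CPM in nephritic libraries, against 159 and 194 CPM in untreated libraries (log2 fold change 3.93 ± 1.09 SE, adjusted p = 0.0427), so that BKV_890 lay closer to the untreated libraries than to BKV_884 and BKV_889. The mucin gene Muc4 had 64.2, 88 and 8.29 CPM in nephritic libraries, against 0.846 and 0 CPM in untreated libraries (log2 fold change 6.95 ± 1.73 SE, adjusted p = 0.0294). Lrrc37a had 16.5, 13.9 and 2.02 CPM in nephritic libraries, against 0.13 and 0 CPM in untreated libraries (log2 fold change 7.23 ± 1.45 SE, adjusted p = 0.00817). Rpl10-ps3 was at 0 in all 3 nephritic libraries and in BKV_729 and at 75.9 CPM in BKV_733, and was not called (adjusted p = 0.22).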
